A study of Mus musculus with 4 samples.

Results

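The genes described here are 45 genes of the extracellular matrix, the network of proteins and sugar chains that cells secrete around themselves. The rule picks them by name from all genes in the count files and reads no level, but it was set with earlier results of these data known. They comprise 7 fibrillar collagens, 10 basement membrane genes, 10 other collagens, 3 genes of the hyaluronan matrix, 6 elastic fibre genes, 6 adhesive and matricellular genes and 3 small leucine-rich proteoglycans. All 45 had at least 1 UMI (unique molecular identifier, a count of 1 captured transcript) in the E8.0, E9.5 and E10.5 libraries, and 44 had in the E8.25 library, where Ogn had none. The study asked which cell populations arise from the Mesp1 lineage in the pharyngeal region and heart. The part of it used here is single-cell RNA sequencing of 4 mouse libraries, 1 per stage. The stages, in embryonic days, were E8.0 and E8.25 (here called early) and E9.5 with E10.5 (here called late). Every embryo was of the Swiss Webster strain and carried Mesp1Cre with Rosa26-GFPflox/+, in which Cre recombinase driven by the early mesoderm gene Mesp1 switches on GFP permanently in descendants of these cells. Embryos were pooled for each library, living GFP-positive cells were sorted, and early embryos gave the upper body, late ones only the heart and pharyngeal apparatus. Stage and dissected region therefore cannot be told apart, and with 1 library per stage no test between stages was possible.

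Matrix proteins are made in a division of labour between cell types. Fibrillar collagens form the tension-bearing fibres of connective tissue. Basement membranes are thin sheets of type IV collagen, laminin, nidogen and perlecan that underlie endothelium and surround muscle cells. In the early heart a hyaluronan-rich gel, the cardiac jelly, lies between endocardium and myocardium and holds versican, which binds hyaluronan, and link protein, which stabilises that binding.

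Retained cells numbered, from the youngest to the oldest library, 7118, 2884, 3921 and 7525, with a median of 15205 to 35216 UMIs per cell, and any pair of libraries shared 16 to 88 cell barcodes. Each cell was placed in a compartment by the summed level of marker genes, none of which is among the 45. The sarcomere gate (heart muscle genes such as Tnnt2 and Myl4) held 252, 28, 382 and 173 cells in the same order, and the endothelial gate (Cdh5, Pecam1 and others) held 383, 152, 201 and 363. The muscle progenitor gate (Tcf21, Lhx2, Msc, Myf5, Myod1) held 4, 22, 386 and 542 cells, and the 4 cells at E8.0 were left out of all comparisons. The mesenchyme gate (Prrx1, Prrx2, Twist1, Twist2) held 3956, 1658, 1765 and 3610 cells and is broad. Levels are given as counts per 1000000 UMIs of the cells summed (CPM), always from the youngest library to the oldest, and for muscle progenitors from E8.25 on. The libraries count transcript 3′ ends, so that a level does not scale with transcript length.

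Independent markers separated the sarcomere and endothelial gates widely and the mesenchyme gate little. The heart muscle genes Myl7, Myh7, Nkx2-5, Tnni3 and Tnnc1 summed to 8909.8 to 18448 CPM in sarcomere cells, against 60.1 to 114 in mesenchyme, and the endothelial genes Kdr, Emcn, Tek, Icam2 and Flt1 to 738 to 1130.0 CPM in endothelial cells, against 17.6 to 76 in mesenchyme. Pdgfra, Snai2 and 3 other mesenchyme genes summed to 275, 275, 217 and 239 CPM in mesenchyme, against 272, 226, 129.7 and 105.2 CPM in cells that passed no gate, nearly level at E8.0, and 79.6 to 140.1 CPM in endothelial and 39.7 to 110.01 CPM in sarcomere cells. In the late libraries the muscle progenitor and mesenchyme gates overlapped most, where 328 and 322 cells passed both and were left out, beside the 386 and 542 kept as muscle progenitors. As a measure of free RNA, haemoglobin and the other erythroid gate genes were read in mesenchyme, where they summed to 125, 3003, 9.28 and 4939 CPM by library. Macrophage markers (Ptprc, Csf1r, Fcer1g, Tyrobp) stayed at or below 4.18 CPM in sum in these 4 compartments.

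The 45 genes together took 1161, 1207, 1484 and 1802 CPM of all retained cells. Endothelial cells held the most in each library, with 1862, 2215, 3159 and 3431 CPM. Sarcomere cells held 1484, 1284, 1466 and 1978 CPM, mesenchyme 1166, 1394, 1458 and 2366 CPM and muscle progenitors 1243, 1195 and 1549 CPM. Both late libraries stood above both early ones in endothelial cells and in mesenchyme, whereas in sarcomere cells E9.5 lay between the early values. Erythroid cells, which were used as the background, held 131, 182 and 129.7 CPM at E8.0, E8.25 and E10.5 (E9.5 had 5 such cells). The erythroid gate genes took 47730, 112592 and 453184 CPM of these cells. That RNA lowers the CPM of every other gene there, most at E10.5, so this background is a low one. A few genes made up much of the total. Hapln1, Fn1 and Sparc took 61.8% of the matrix UMIs in endothelial cells at E8.0 and 49.3% at E10.5, while in mesenchyme the leading genes were Fn1, Vcan and Fbln1 at E8.0 (37.2%) and Sparc, Col3a1 and Vcan at E10.5 (32.4%). Single cells also differed widely. In mesenchyme at E10.5 the median cell had 1889 CPM of the 45 genes and the upper 5% of cells over 6239 CPM, against 1126 and 2068 CPM at E8.0.

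**Figure D1:**
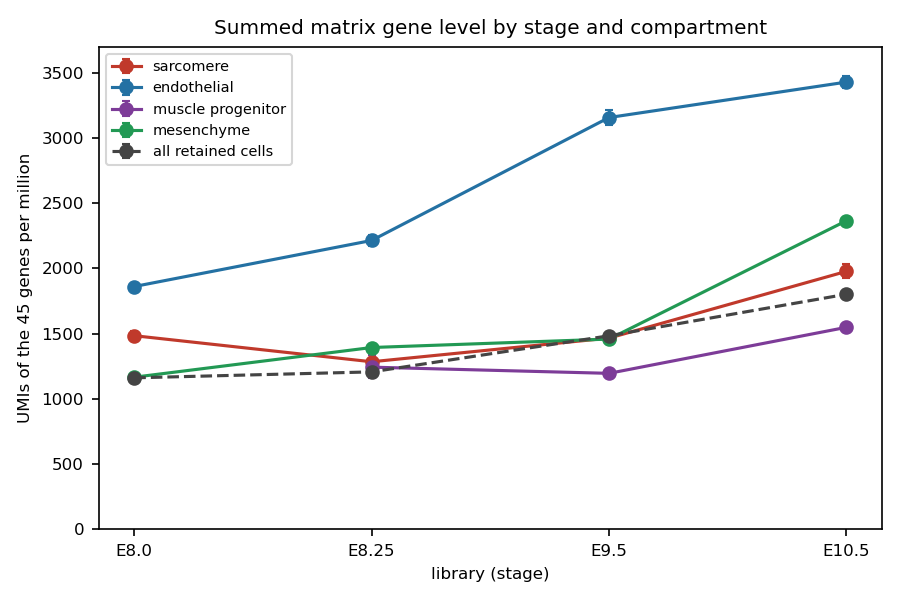
Summed level of the 45 matrix genes (y axis, CPM) in each library (x axis, stage) for the 4 compartments and for all retained cells, with 95% exact counting intervals as bars. Endothelial cells lie highest in every library, from 1862 to 3431, and the muscle progenitor line starts at E8.25.

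The composition of the matrix RNA differed between stages. Over all retained cells, fibrillar collagens made up 8.17%, 12.1%, 14% and 24.2% of the matrix UMIs, basement membrane genes 20.8%, 19.8%, 13.5% and 12.1% and the hyaluronan matrix 19.1%, 14.2%, 12.8% and 10.4%. Fibrillar collagens had their highest share at E10.5, whereas the other 2 groups had lower shares at each late stage than at each early one. Shares refer to a matrix total that was higher late. In level, all retained cells held 241, 239, 201 and 219 CPM of basement membrane genes and 222, 171, 190 and 188 CPM of the hyaluronan matrix. The basement membrane level differed less than its share, and the hyaluronan level was higher in both late libraries than at E8.25. The basement membrane share was 24.3%, 27.3%, 25.7% and 30.6% in endothelial cells and 19.9%, 18.7%, 10.6% and 8.66% in mesenchyme. Mesenchyme held 101, 177, 261 and 687 CPM of fibrillar collagens and 232, 261, 155 and 205 CPM of basement membrane genes. Endothelial cells instead held 453, 604, 811 and 1051 CPM of basement membrane genes and 29.9, 53, 154 and 271 CPM of fibrillar collagens. Both endothelial sums were higher in the late libraries, and basement membrane genes exceeded fibrillar collagens in all 4.

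**Figure D2:**
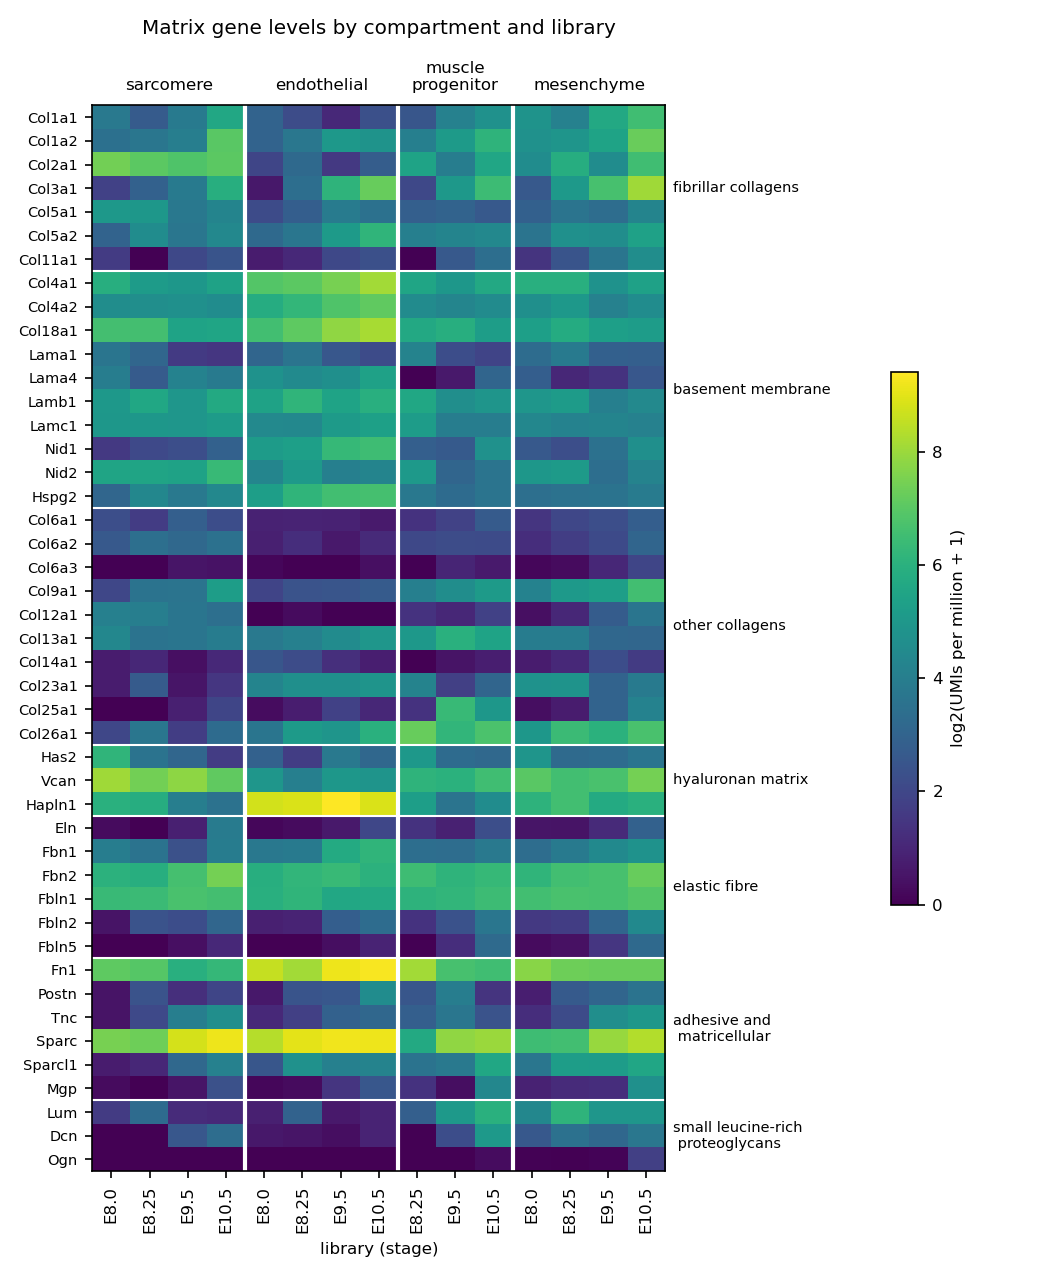
Level of each of the 45 genes (rows, grouped by role) in each compartment and library (columns), coloured by log2(CPM + 1). Hapln1, Col4a1, Nid1 and Hspg2 are brightest in endothelial cells, Col2a1 in sarcomere cells, and Ogn and Col6a3 are near 0 in most columns.

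Compartments were compared within libraries by edgeR's quasi-likelihood test on counts summed per library and compartment, with the library as a block and Benjamini-Hochberg adjustment over 12517 genes. Of the 45 genes, 43 passed the filter on low counts (Ogn and Col6a3 did not). In endothelial cells against mesenchyme 12 of the 43 were higher and 20 lower, where 22.4% of all genes tested were higher and 20.2% lower. In sarcomere cells against mesenchyme 10 were higher and 13 lower, against a background of 21.9% and 21.1%. Between endothelial and sarcomere cells 14 were higher and 12 lower in endothelium, where all genes gave 24.7% and 23%. Muscle progenitors differed from mesenchyme in 1 gene upward and 1 downward, against 1.13% and 0.791% of all genes, in a comparison of 3 libraries whose E8.25 sum held 22 cells. The part of the overlap between these 2 gates in the low counts was not tested. The share called lower in endothelium against mesenchyme, 46.5% of the 43, stood furthest above its background, whereas the shares called higher were 27.9% in endothelium and 23.3% in sarcomere cells. The median log2 difference of the 43 was -0.70 for endothelium and -0.58 for sarcomere cells against mesenchyme, beside -0.02 and -0.02 for all genes. These comparisons share compartments, so their calls are not independent of each other. Of the 83 calls 41 held under all 13 alternatives to the processing, and 42 missed the threshold under at least 1. Most were lost without the library block (32), without E9.5 (22) and without E10.5 (21). The calls that held throughout in endothelium against mesenchyme were those of Col18a1, Col1a1, Col2a1, Col4a1, Col4a2, Col6a1, Col6a2, Col9a1, Dcn, Fbln1, Fn1, Hapln1, Hspg2, Lama4, Lamb1, Lum, Nid1, Sparc and Vcan. In sarcomere cells against mesenchyme they were those of Col23a1, Col26a1, Col2a1, Col6a2, Lama4 and Lum, and in endothelial against sarcomere cells those of Col12a1, Col23a1, Col26a1, Col2a1, Col4a1, Col4a2, Col6a1, Col6a2, Col9a1, Fbln1, Fn1, Hapln1, Hspg2, Nid1, Nid2 and Vcan.

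**Figure D3:**
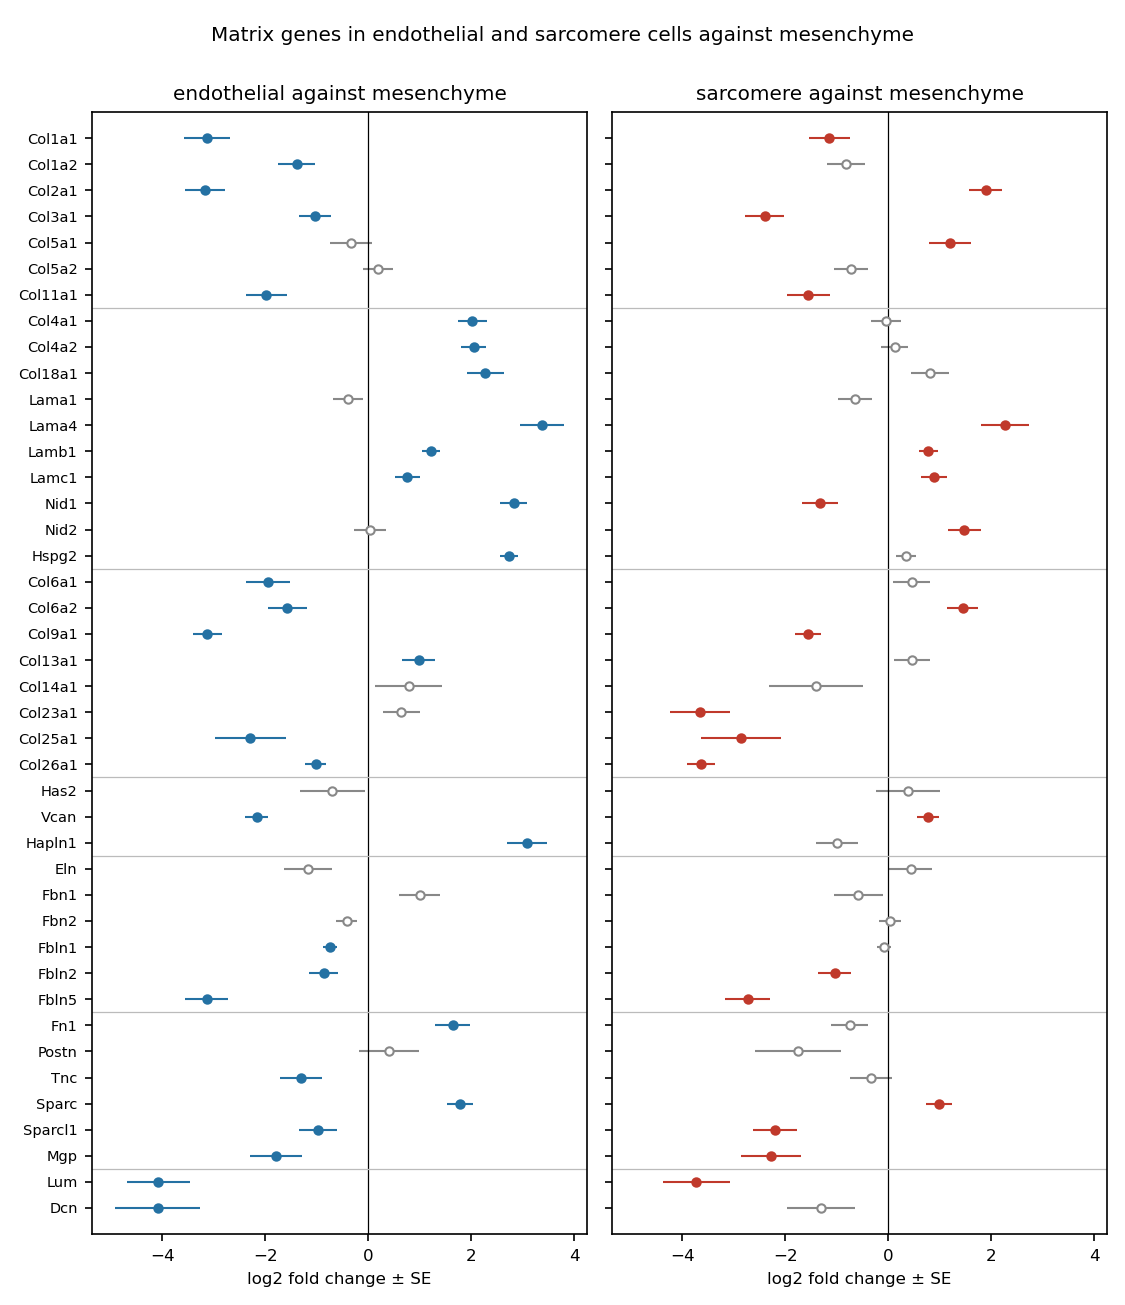
Log2 fold change (x axis) with its standard error for 42 matrix genes (y axis, grouped by role) in endothelial and in sarcomere cells against mesenchyme, 4 libraries each. Filled points passed the adjusted threshold of 0.05, grey open points did not, and Col12a1 is left out because endothelial cells held 1 UMI of it. Basement membrane genes lie mostly to the right of 0 in endothelium, and fibrillar collagens mostly to the left.

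Of the 10 basement membrane genes 8 were higher in endothelial cells than in mesenchyme and none was lower, beside 22.4% and 20.2% of all genes. Against sarcomere cells 5 were higher in endothelium and 1 lower (all genes: 24.7% and 23%), and sarcomere cells were themselves above mesenchyme in 4 and below it in 1 (all genes: 21.9% and 21.1%). Perlecan (Hspg2), the large heparan sulphate proteoglycan of basement membranes, was at 37.2, 69.6, 94 and 98 CPM in endothelial cells and 9.78, 10.6, 11 and 14.2 CPM in mesenchyme. The groups did not overlap (log2 fold change 2.74 ± 0.18 (SE), adjusted p = 2.31e-07). Nidogen 1 (Nid1), which links laminin to type IV collagen, was at 34.8, 38.6, 77.8 and 89.7 CPM in endothelial cells, 5.16, 3.79, 10.3 and 24.9 CPM in mesenchyme and 1.92, 3.27, 3.85 and 6.6 CPM in sarcomere cells. Its endothelial values all lay above those of the other compartments (log2 fold change 2.83 ± 0.26 (SE), adjusted p = 3.95e-06), and its sarcomere values lay below mesenchyme in each library (log2 fold change -1.32 ± 0.36 (SE), adjusted p = 0.0102, and 0.158 without the library block). Col18a1, which carries the endostatin fragment, was at 93.5, 135, 230.4 and 290.4 CPM in endothelial cells, 96.3, 95.9, 42.8 and 44.7 CPM in sarcomere cells and 38.5, 54, 39 and 35.9 CPM in mesenchyme. Endothelial cells were above mesenchyme (log2 fold change 2.27 ± 0.36 (SE), adjusted p = 0.00031). They were above sarcomere cells in 3 of 4 libraries, not at E8.0 (log2 fold change 1.47 ± 0.38 (SE), adjusted p = 0.00704), and that call was lost without E9.5 (adjusted p = 0.0774) or E10.5 (0.0526).

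Both chains of the common type IV collagen network moved alike between compartments. Col4a1 was at 117, 131, 176 and 273 CPM in endothelial cells, 58.5, 34.9, 30.8 and 42.2 CPM in sarcomere cells and 59.99, 59.99, 26.7 and 40.9 CPM in mesenchyme. Col4a2 was at 55.4, 73.7, 111 and 137, 23.7, 24, 25.4 and 22.7 and 24.4, 31.7, 16.4 and 23.1 CPM in the same compartments. Endothelial values did not overlap with the others for either chain, and the differences from mesenchyme were 2.02 ± 0.28 for Col4a1 and 2.05 ± 0.24 for Col4a2 on the log2 scale (SE, adjusted p = 0.000103 and 3.09e-05). Sarcomere cells and mesenchyme overlapped in both genes, with log2 differences of -0.04 ± 0.29 and 0.13 ± 0.26 that missed the threshold (adjusted p = 0.936 and 0.728). The 2 genes lie head to head on chromosome 8 of mm10, at 11198423-11312889 and 11312805-11449287, and their annotated spans overlap.

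Laminin subunits did not move as a block. The alpha 4 chain gene Lama4, whose product belongs to the laminins of vessels and muscle, was at 26.9, 21.8, 25 and 41 CPM in endothelial cells, 14.7, 5.45, 16.9 and 13.6 CPM in sarcomere cells and 5.96, 1.07, 1.62 and 4.85 CPM in mesenchyme. Both were above mesenchyme, by 3.38 ± 0.43 and 2.27 ± 0.46 on the log2 scale (SE, adjusted p = 5.75e-05 and 0.00199), though the E8.25 sarcomere value lay below the E8.0 mesenchyme value. Lama1, which encodes the alpha chain of the early embryonic laminin, was at 7.45, 11.5, 4.83 and 3.43 CPM in endothelial cells and 9.11, 13.6, 6.37 and 6.27 CPM in mesenchyme, and did not pass the test in either comparison. Of their partners, Lamb1 was higher than mesenchyme in endothelial cells (1.22 ± 0.17, adjusted p = 0.000113) and in sarcomere cells (0.78 ± 0.18, adjusted p = 0.00378), and so was Lamc1 (0.76 ± 0.24, adjusted p = 0.0241, and 0.90 ± 0.25, adjusted p = 0.0126). The Lamc1 calls were lost without E9.5 (adjusted p = 0.183 in endothelium and 0.0835 in sarcomere cells) and without E10.5 (0.162 and 0.0511). The Lamb1 call in sarcomere cells was lost without E9.5 (adjusted p = 0.0784) and without the library block (0.0965).

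The 2 nidogens were opposed in heart muscle. Nid2 was at 44.4, 43.6, 42.2 and 79.2 CPM in sarcomere cells, 30.5, 33.9, 9.53 and 17.6 CPM in mesenchyme and 18.3, 32.6, 15.6 and 18.2 CPM in endothelial cells. Sarcomere values lay above all others (log2 fold change 1.48 ± 0.31 (SE), adjusted p = 0.00239), while endothelial cells and mesenchyme overlapped (log2 difference 0.04 ± 0.31 (SE), adjusted p = 0.934). Against sarcomere cells, endothelium was higher in Nid1 (log2 fold change 4.15 ± 0.35) and lower in Nid2 (-1.44 ± 0.33) (SE, adjusted p = 1.73e-06 and 0.00312). Without the library block the sarcomere calls against mesenchyme were lost for both (adjusted p = 0.158 and 0.0584).

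Upstream sequences are shown for 3 genes that were raised in endothelium and for Col3a1, a gene that was higher in the late libraries, so that their composition can be seen side by side. They come from RefSeq on GRCm38.p6 (the assembly also named mm10), on the plus strand, and are the bases before the annotated start that lie outside the gene, 198 to 250 of them for Nid1, Hspg2 and Col3a1 and 143 for Hapln1. Of the 45 genes, 27 had such an entry. Capitals mark CCAAT or TATAAA on either strand (the reverse complements are ATTGG and TTTATA). The positions are chr13:13437352-13437601, chr4:137468553-137468750, chr13:89540386-89540528 and chr1:45311288-45311537.
Nid1: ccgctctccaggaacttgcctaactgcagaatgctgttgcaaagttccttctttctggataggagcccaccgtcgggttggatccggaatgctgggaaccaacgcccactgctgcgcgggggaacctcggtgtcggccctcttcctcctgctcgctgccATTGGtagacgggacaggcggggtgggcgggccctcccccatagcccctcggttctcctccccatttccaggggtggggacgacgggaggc
Hspg2: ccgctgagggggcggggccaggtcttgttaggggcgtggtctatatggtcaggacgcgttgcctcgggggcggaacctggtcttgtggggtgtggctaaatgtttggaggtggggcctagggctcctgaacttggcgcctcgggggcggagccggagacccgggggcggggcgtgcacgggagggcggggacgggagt
Hapln1: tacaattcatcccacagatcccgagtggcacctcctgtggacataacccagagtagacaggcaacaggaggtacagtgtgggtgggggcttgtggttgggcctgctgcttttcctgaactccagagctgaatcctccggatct
Col3a1: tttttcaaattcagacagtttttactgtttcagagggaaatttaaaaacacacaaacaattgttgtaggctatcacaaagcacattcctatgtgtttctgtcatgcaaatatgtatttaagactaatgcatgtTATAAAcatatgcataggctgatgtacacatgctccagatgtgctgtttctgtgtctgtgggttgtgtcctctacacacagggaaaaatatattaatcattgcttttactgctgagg
The share of G and C was 70.2% for Hspg2, 64.4% for Nid1, 55.2% for Hapln1 and 35.2% for Col3a1. A CCAAT match stood in 11 of the 27 genes (40.7%), beside 37.5% of all 27025 genes with an entry, when the 250 bases before each start were searched. TATAAA stood in 5 of 27 (18.5%), beside 14.3% of all genes. Both shares are near those of all genes, and a match is a description of these letters only.

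Of the 3 hyaluronan matrix genes, Hapln1 was higher and Vcan lower in endothelium than in mesenchyme, and Has2, a hyaluronan synthase gene, was called in no comparison. Hapln1 (ENSMUSG00000021613), the link protein gene, was at 437, 466, 679 and 467 CPM in endothelial cells, 67.5, 93, 53.1 and 61.5 CPM in mesenchyme, 61.9, 57.7, 15.2 and 10.6 CPM in sarcomere cells and 37.7, 11.4 and 23.1 CPM in muscle progenitors. All endothelial values lay above all values of the other compartments (log2 fold change 3.09 ± 0.38 (SE), adjusted p = 4.47e-05 against mesenchyme). Versican (Vcan) was at 265, 167, 222 and 136 CPM in sarcomere cells, 127, 94.2, 103 and 173 CPM in mesenchyme and 29.4, 15.7, 30.4 and 28.3 CPM in endothelial cells. Endothelial values lay below all the others (log2 fold change -2.16 ± 0.22 (SE), adjusted p = 9.84e-06), and sarcomere values lay above mesenchyme in 3 of 4 libraries (log2 fold change 0.77 ± 0.21 (SE), adjusted p = 0.0101). That sarcomere call was lost without E8.0, E8.25 or E9.5 (adjusted p = 0.0634, 0.0515 and 0.106). Between endothelial and sarcomere cells directly, Hapln1 differed by 4.08 ± 0.44 and Vcan by -2.94 ± 0.23 on the log2 scale (SE, adjusted p = 1.17e-05 and 9.24e-07), in opposite directions. The genes are neighbours on chromosome 13 of mm10, at 89540529-89611832 and 89655309-89743027, with 43.5 kb and no protein-coding gene between them.

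Has2, which encodes the main hyaluronan synthase of the embryonic heart, was lower in sarcomere cells with each later library. It was at 71.1, 10.9, 7.7 and 2.2 CPM in sarcomere cells, 28.7, 8.61, 8.93 and 11.7 CPM in mesenchyme and 6.56, 2.25, 13.1 and 7.91 CPM in endothelial cells. E8.0 was the highest library in sarcomere cells and in mesenchyme, and the compartments overlapped. No comparison passed the test (adjusted p = 0.651 for sarcomere cells and 0.398 for endothelium against mesenchyme).

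**Figure D4:**
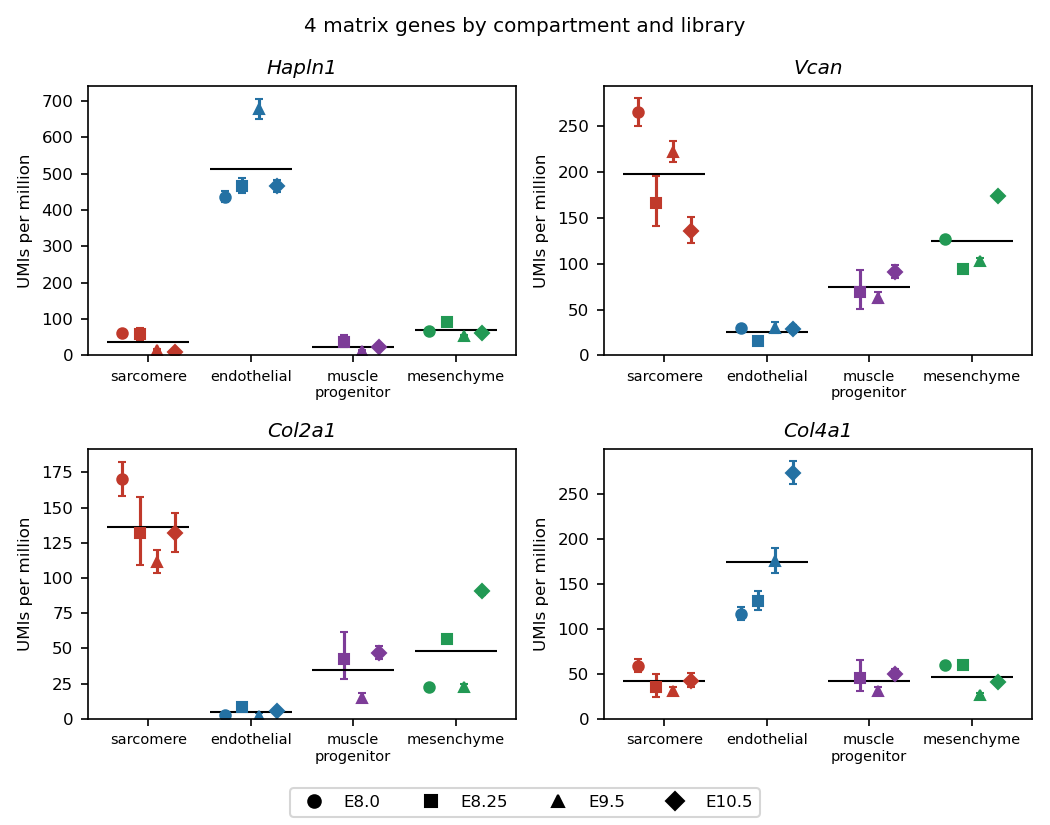
Level (y axis, CPM, from 0) of Hapln1, Vcan, Col2a1 and Col4a1 by compartment (x axis), with 1 symbol per library, 95% exact counting intervals as bars and the mean over libraries as a line. Hapln1 and Col4a1 stand apart in endothelium, Col2a1 in sarcomere cells, and Vcan is lowest in endothelium.

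Fibrillar collagens were low in endothelium: 5 of 7 were lower than in mesenchyme and none was higher, beside 20.2% and 22.4% of all genes. Of these calls those of Col1a1 and Col2a1 held under all alternatives, and those of Col1a2, Col3a1 and Col11a1 did not. Col2a1, the collagen of cartilage, which is also known from the early heart, was at 170.1, 132, 111 and 132 CPM in sarcomere cells, 22.7, 56.6, 22.9 and 90.6 CPM in mesenchyme and 2.9, 8.31, 1.99 and 5.82 CPM in endothelial cells. The 3 compartments did not overlap at any stage: sarcomere cells were higher (log2 fold change 1.89 ± 0.32 (SE), adjusted p = 0.000544) and endothelial cells lower than mesenchyme (log2 fold change -3.17 ± 0.39 (SE), adjusted p = 4.43e-05). The cartilage or notochord markers (Acan, Sox9, Shh, Noto) summed to 5.76 to 17.6 CPM in sarcomere cells and 34 to 79.3 CPM in mesenchyme, nearly all of it Sox9. Shh and Noto had no UMI in sarcomere cells and Acan was at or below 0.367 CPM there, and the part of such cells in the mesenchyme value was not tested.

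The 2 chains of type I collagen, the main collagen of connective tissue, were unequal. Col1a1 was at 27.6, 16.5, 49.9 and 90.04 CPM in mesenchyme, 13, 5.45, 13.6 and 49.1 CPM in sarcomere cells and 7.07, 3.59, 1.14 and 3.88 CPM in endothelial cells. Col1a2 was at 26.3, 29.3, 42.8 and 154 CPM in mesenchyme, 10.2, 12, 15.1 and 127 CPM in sarcomere cells and 7.07, 12.4, 31 and 27.3 CPM in endothelial cells. In endothelium Col1a1 fell below all mesenchyme values (log2 -3.14 ± 0.45 (SE), adjusted p = 0.000129), while Col1a2 overlapped them across stages and was lower within each library (-1.39 ± 0.36 (SE), adjusted p = 0.00851, and 0.183 without the library block). Endothelial Col1a2 exceeded Col1a1 in 3 of 4 libraries and equalled it at E8.0. For sarcomere cells the Col1a1 call (-1.15 ± 0.39 (SE), adjusted p = 0.033) was lost without E8.25 (0.0716), without E9.5 (0.13), without the block (0.254) and with cells of 2 gates kept (0.0902).

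Col3a1, the partner of type I collagen in compliant tissues such as vessel walls, was at 5.11, 33.3, 101 and 269.7 CPM in mesenchyme, 0.505, 9.66, 69.3 and 149.95 CPM in endothelial cells, 2.56, 6.54, 13.2 and 58.3 CPM in sarcomere cells and 3.14, 31.3 and 86.5 CPM in muscle progenitors. Mesenchyme was highest in every library, and each compartment was highest at E10.5. The log2 fold change against mesenchyme was -2.40 ± 0.37 in sarcomere cells (SE, adjusted p = 0.000323), -1.03 ± 0.30 in endothelial cells (adjusted p = 0.0164) and -1.88 ± 0.37 in muscle progenitors (adjusted p = 0.0212), the last as the only matrix gene called lower there. The endothelial call was lost without E8.25 (adjusted p = 0.108) or E10.5 (0.0548), and the muscle progenitor call without E8.25, E9.5 or E10.5 (0.119, 0.198 and 0.235). Without the library block all 3 calls were lost (adjusted p = 0.259, 0.739 and 1). Col5a2 lies 24.6 kb from Col3a1 on chromosome 1 of mm10 with no protein-coding gene between them. It was at 11.2, 25.3, 23.6 and 40.9 CPM in mesenchyme and 8.33, 11.9, 33.5 and 69.98 CPM in endothelial cells, where the difference missed the threshold (adjusted p = 0.635).

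The minor fibrillar collagens, which are incorporated into larger fibrils, differed in direction in heart muscle. Col5a1 was at 31.6, 30.5, 12.8 and 18 CPM in sarcomere cells and 6.3, 11.3, 9.18 and 18.2 CPM in mesenchyme. Sarcomere cells were above mesenchyme in 3 of 4 libraries, most at E8.0 and E8.25 (log2 fold change 1.20 ± 0.41 (SE), adjusted p = 0.0323), and the call was lost without either of these (adjusted p = 0.215 and 0.121), without the block (0.0647) and with gates on thinned cells (0.0542). Col11a1, a chain of cartilage fibrils, was at 1.68, 4.42, 11.5 and 23.7 CPM in mesenchyme, 0.631, 1.12, 3.12 and 3.88 CPM in endothelial and 2.13, 0, 3.08 and 4.4 CPM in sarcomere cells. It was lower in endothelium (log2 -1.98 ± 0.39 (SE), adjusted p = 0.00153) and in sarcomere cells (-1.55 ± 0.42 (SE), adjusted p = 0.00982), both lost without the block (adjusted p = 0.0719 and 0.135) and the second also without E9.5 (0.11) or E10.5 (0.135).

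Among the other collagens, Col12a1, a collagen that associates with fibril surfaces, was close to absent from endothelium. Endothelial cells held 0, 1, 0 and 0 UMIs of it, sarcomere cells 76, 14, 76 and 27 and mesenchyme 28, 62, 180 and 637. Pooled over the 4 libraries, the log2 ratio of endothelial cells to mesenchyme was -6.46 (95% exact interval -11.77 to -3.98), which covers counting error only. In sarcomere cells it was at 16.2, 15.2, 11.7 and 9.9 CPM, against 0.322, 1.05, 5.62 and 11.7 CPM in mesenchyme, so that the excess lay at E8.0, E8.25 and E9.5 and not at E10.5 (log2 fold change 2.41 ± 0.77 (SE), adjusted p = 0.0246). The sarcomere call was lost without E8.0, E8.25 or E9.5 (adjusted p = 0.0904, 0.179 and 0.0559) and without the block (0.148). The endothelial call (adjusted p = 0.0138) was lost without E8.25, E9.5 or E10.5 (0.0601, 0.0569 and 0.0777).

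A pair of collagens was low in heart muscle. Col26a1 was at 2.99, 12, 2.31 and 8.8 CPM in sarcomere cells, 30.5, 84.6, 64.1 and 104 CPM in mesenchyme, 11.6, 33.9, 29.3 and 61 CPM in endothelial cells and 149, 72 and 107 CPM in muscle progenitors. Sarcomere values lay below all mesenchyme values (log2 fold change -3.64 ± 0.28 (SE), adjusted p = 9.82e-07). Col26a1 was also called lower in endothelium than in mesenchyme, a call that was lost only without the library block (adjusted p = 0.184). Col23a1, a transmembrane collagen, was at 0.64, 5.45, 0.462 and 1.83 CPM in sarcomere cells, 26.9, 27.2, 6.97 and 13.7 CPM in mesenchyme and 18.1, 24.9, 24.7 and 28.5 CPM in endothelial cells. The sarcomere values, which rest on 3, 5, 3 and 5 UMIs, were below those of both (log2 fold change -3.65 ± 0.58 (SE), adjusted p = 0.000387). Endothelial cells were above sarcomere cells in Col23a1 by 4.29 ± 0.59 and in Col26a1 by 2.62 ± 0.29 on the log2 scale (SE, adjusted p = 8.36e-05 and 1.59e-05).

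Muscle progenitors differed upward from mesenchyme in a membrane-bound collagen. Col13a1, a transmembrane collagen of cell-matrix junctions, was at 31.4, 61.1 and 43.3 CPM in muscle progenitors and 14.6, 14.5, 7.75 and 7.56 CPM in mesenchyme (all 4 libraries). The groups did not overlap (log2 fold change 2.16 ± 0.36 (SE), adjusted p = 0.00968, 3 libraries), and the call was lost without E9.5 (adjusted p = 0.343) or E10.5 (0.0571). Endothelial cells had 13, 15.9, 22.2 and 29.7 CPM and were also called higher (log2 0.98 ± 0.32 (SE), adjusted p = 0.0277), which was lost without E9.5 (0.214), without E10.5 (0.229), with doubled gate thresholds (0.0822) and with gates on thinned cells (0.0531). Col25a1, a transmembrane collagen of developing muscle, was at 1.57, 79.6 and 30.9 CPM in muscle progenitors and 0.287, 0.664, 7 and 17 CPM in mesenchyme, with the highest value of any compartment in muscle progenitors at E9.5. Its difference of 2.23 ± 0.54 on the log2 scale (SE) missed the threshold (adjusted p = 0.0597), and the E8.25 value rests on 1 UMI. Against mesenchyme Col25a1 was lower in sarcomere cells (-2.86 ± 0.78, adjusted p = 0.0105, and 0.0608 without E9.5) and in endothelium (-2.30 ± 0.69, adjusted p = 0.0178, and 0.166 without E10.5, 0.104 with DESeq2 and 0.19 without the block).

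Of the 9 other collagens tested 6 were lower and 1 higher in endothelium than in mesenchyme, beside 20.2% and 22.4% of all genes. Col9a1, Col6a1 and Col6a2 were the remaining 3 of the 6. Col9a1, a cartilage collagen, was at 17, 31.9, 38.2 and 92.6 CPM in mesenchyme, 2.78, 4.27, 4.55 and 5.52 CPM in endothelial cells and 2.99, 10.9, 11.4 and 37 CPM in sarcomere cells. It was lower in endothelium in every library (log2 fold change -3.13 ± 0.28 (SE), adjusted p = 3.49e-06) and in sarcomere cells (-1.56 ± 0.26, adjusted p = 0.000529, and 0.0945 without the block). Col6a1 and Col6a2, chains of the beaded type VI filament, were at 1.71 to 6.1 and 1.32 to 7.38 CPM in mesenchyme and 0.597 to 0.898 and 0.568 to 1.35 CPM in endothelial cells. Both were lower in endothelium (log2 -1.95 ± 0.43 and -1.57 ± 0.38 (SE), adjusted p = 0.00291 and 0.00542), and Col6a2 was higher in sarcomere cells (1.45 ± 0.30 (SE), adjusted p = 0.00237). The third chain, Col6a3, stayed at or below 2.86 CPM in all compartments and was not tested. Col14a1 stayed at or below 4.67 CPM in all compartments and was called in no comparison.

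Fibronectin and osteonectin were the largest adhesive and matricellular transcripts. Fibronectin (Fn1), the fibril-forming ligand of integrins, was at 386, 274, 575 and 644 CPM in endothelial cells, 213, 161, 150.4 and 153 CPM in mesenchyme and 133, 122, 60.5 and 76.6 CPM in sarcomere cells. Endothelial values lay above all mesenchyme and sarcomere values (log2 fold change 1.64 ± 0.35 (SE), adjusted p = 0.00233), but the 22 muscle progenitors at E8.25 had 277 CPM. Sarcomere cells missed the threshold against mesenchyme (adjusted p = 0.107). Osteonectin (Sparc), a collagen-binding matricellular protein, was at 328, 517, 592 and 580.1 CPM in endothelial cells, 179, 161, 447 and 574 CPM in sarcomere cells and 88.2, 92.5, 247 and 323 CPM in mesenchyme. Both were above mesenchyme within each library (log2 1.79 ± 0.25 for endothelium and 0.98 ± 0.25 for sarcomere cells (SE), adjusted p = 0.000117 and 0.00703), and endothelial values lay above all mesenchyme values while the sarcomere range overlapped them. The sarcomere call was lost without E9.5 (adjusted p = 0.0546) and without the block (0.203).

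Of the 6 adhesive and matricellular genes 3 were lower than mesenchyme in endothelium and 2 in sarcomere cells (all genes: 20.2% and 21.1%). None was called in muscle progenitors, where 1.13% of all genes were higher and 0.791% lower. Sparcl1, a relative of Sparc, was at 11.9, 37, 35.7 and 46.9 CPM in mesenchyme and 0.64, 1.09, 8.16 and 16.5 CPM in sarcomere cells (log2 fold change -2.20 ± 0.43 (SE), adjusted p = 0.00145, and 0.0571 without the library block), where the early sarcomere values rest on 3 and 1 UMIs. It was also called lower in endothelium (-0.98 ± 0.36, adjusted p = 0.0457), a call that was lost under 7 of 13 alternatives, without E8.0, E9.5 or E10.5 (adjusted p = 0.0835, 0.127 and 0.0584), with DESeq2 (0.0898), without the block (0.376), with doubled gates (0.137) and with gates on thinned cells (0.164). Mgp, an inhibitor of calcification, was at 0.85, 1.24, 1.34 and 25.5 CPM in mesenchyme and 0.213, 0, 0.462 and 4.03 CPM in sarcomere cells, so that its level was concentrated at E10.5. Its calls were lost without E10.5 in sarcomere cells (log2 -2.27 ± 0.58 (SE), adjusted p = 0.00743, then 0.134, and 0.275 without the block) and in endothelium (-1.80 ± 0.50, adjusted p = 0.0126, then 0.3, and 0.052 without E8.25, 0.066 with DESeq2 and 0.364 without the block). Tenascin C (Tnc), which modulates adhesion, was at 1.37, 3.47, 24.3 and 30.8 CPM in mesenchyme and 1.14, 2.47, 6.53 and 7.91 CPM in endothelial cells (-1.31 ± 0.42, adjusted p = 0.0237, lost without E9.5 at 0.137, without E10.5 at 0.0836, with DESeq2 at 0.0594 and without the block at 0.273). Periostin (Postn), a marker of valve and cushion tissue, was at 0.505, 4.49, 4.83 and 23.1 CPM in endothelial cells and 0.723, 5.34, 7.4 and 11.1 CPM in mesenchyme and was called in no comparison.

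Of the 6 elastic fibre genes none was higher than mesenchyme in endothelial or sarcomere cells, beside 22.4% and 21.9% of all genes. In the same order 3 and 2 were lower, beside 20.2% and 21.1%. With 6 genes, counts this small do not set the group apart from all genes. Fbln5, which is needed for elastic fibre assembly, was at 0.207, 0.34, 1.78 and 8.23 CPM in mesenchyme and had 0, 0, 1 and 6 UMIs in endothelial and 0, 0, 2 and 3 UMIs in sarcomere cells. It was called lower in endothelium (adjusted p = 7.81e-05) and in sarcomere cells (adjusted p = 0.00038), but both calls were lost without the library block (0.146 and 0.21). Without E10.5 Fbln5 had no test result, so whether both calls depend on that library could not be checked. The log2 ratio of endothelial cells to mesenchyme pooled over libraries was -2.91 (95% exact interval -4.23 to -1.86). Fbln1, found in many elastic and basement membrane matrices, was at 92.9, 103, 101 and 117 CPM in mesenchyme and 59.96, 70.7, 48.9 and 49.7 CPM in endothelial cells, and was lower in endothelium in each library (log2 fold change -0.73 ± 0.14 (SE), adjusted p = 0.000885). Fbln2, which binds fibronectin and elastic fibre proteins, was at 1.92, 2.26, 7.43 and 20.8 CPM in mesenchyme and 0.757, 0.898, 5.97 and 8.95 CPM in endothelial cells and was lower there (log2 fold change -0.86 ± 0.28 (SE), adjusted p = 0.0268), a call that was lost without E10.5 (adjusted p = 0.212), with DESeq2 (0.0521) and without the block (0.553). The sarcomere call of Fbln2 was lost without the block (0.507), without E9.5 (0.0815) and without E10.5 (0.207). The fibrillins build microfibrils. Fbn1 was at 12.6, 13.3, 52.8 and 69.5 CPM in endothelial cells and 9.4, 13.9, 21 and 27 CPM in mesenchyme (adjusted p = 0.0645, not called), and Fbn2 at 58.7, 71.9, 79.5 and 65.1 and 69.8, 94.5, 101 and 148 CPM (adjusted p = 0.125). Elastin itself (Eln) stayed at or below 1.16 CPM until E9.5 in all compartments except muscle progenitors, which had 1 UMI at E8.25, and reached 13.9 CPM in sarcomere cells at E10.5.

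Small leucine-rich proteoglycans, which coat collagen fibrils, were low in endothelium. Lumican (Lum) was at 19.5, 68.6, 29.5 and 29.7 CPM in mesenchyme, 0.757, 6.74, 0.568 and 0.895 CPM in endothelial cells, 2.13, 8.71, 1.23 and 1.1 CPM in sarcomere cells and 6.28, 32.2 and 62.4 CPM in muscle progenitors. E8.25 was the highest library of mesenchyme, endothelium and sarcomere cells alike, and endothelial and sarcomere values lay below all mesenchyme values (log2 -4.08 ± 0.60 and -3.73 ± 0.65 (SE), adjusted p = 0.000181 and 0.000733). Decorin (Dcn) was at 4.98, 10.3, 7.81 and 12.2 CPM in mesenchyme and had 4, 2, 1 and 6 UMIs in endothelial cells (log2 fold change -4.09 ± 0.83 (SE), adjusted p = 0.00181). Dcn lies next to Lum on chromosome 10 of mm10, with 47.3 kb between them. Ogn was at 2.43 CPM in mesenchyme at E10.5 and at or below 0.242 CPM in the other gated compartments.

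Stages were then compared by value alone. A gene was counted as higher late when the lower of its E9.5 and E10.5 levels was at least 2-fold above the higher of its E8.0 and E8.25 levels, among genes with at least 50 UMIs over the 4 libraries. Over all retained cells 10 of 45 genes were higher late and none lower, beside 7.91% and 2.49% of all genes. With a library left out the count was 11 to 19 higher (19 without E9.5) and 1 to 3 lower. Leaving out a library removes a condition of the rule, so these counts could only stay or rise and do not check the result. A 3-fold limit, which could only lower the count, gave 5 higher. Within mesenchyme 11 of 45 were higher and none lower (all genes: 5.69% and 2.64%). Endothelial cells gave 7 of 33 higher and 1 lower (all genes: 4.11% and 1.72%), and sarcomere cells 5 of 34 higher and 3 lower (all genes: 4.43% and 1.03%). Sums over all cells also shift when the mix of cell types shifts, and the erythroid share alone went from 0.128% to 13.8% of cells between E9.5 and E10.5. The median log2 ratio of late to early means in mesenchyme was 0.76 over the 45 genes and 0.12 over all genes.

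The genes that were higher late came from several roles. Over all cells Col25a1 was at 0.297, 0.585, 20.6 and 11.4 CPM and Col3a1 at 4.74, 26.9, 69.6 and 165 CPM, log2 ratios of late to early means of 5.19 and 2.89. Fbln5 was at 0.171, 0.33, 1.25 and 4.78 CPM (log2 ratio 3.59), Tnc at 1.4, 2.8, 18 and 17.6 CPM (3.08) and Eln at 0.409, 0.274, 1.1 and 4.54 CPM (3.05). Each was higher in both late libraries, though Tnc was level between E9.5 and E10.5 and Col25a1 was highest at E9.5. The other 5 were Col12a1 (2.63), Col6a3 (2.49), Fbln2 (2.25), Col11a1 (2.20) and Sparc (1.38). Sparc had by far the highest level of them, at 109, 112, 289 and 289 CPM, with both pairs of libraries level within the pair.

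Within mesenchyme the spans were wider for most of these genes. Col25a1, at 0.287, 0.664, 7 and 17 CPM (log2 ratio 4.66), was an exception, with a ratio below that over all cells. Fbln5 had a ratio of 4.19, Col12a1 of 3.66, Col6a3 of 3.56 and Tnc of 3.51. Col3a1 had 3.27, with a level at E10.5 above that of every other mesenchyme gene of the 45 except Sparc. Nid1 was counted in mesenchyme and not over all cells, at 5.16, 3.79, 10.3 and 24.9 CPM. From E8.0 to E8.25 alone 12 of 42 mesenchyme genes were at least 2-fold higher and 2 lower (Lama4 and Has2), beside 3.42% and 4.64% of all genes. From E9.5 to E10.5, where the dissected region was the same, 16 of 45 were at least 2-fold higher and none lower, beside 8.16% and 2.08%. These 16 included the fibrillar collagens Col1a2, Col2a1, Col3a1 and Col11a1, and Mgp, which was at 1.34 and then 25.5 CPM.

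**Figure D5:**
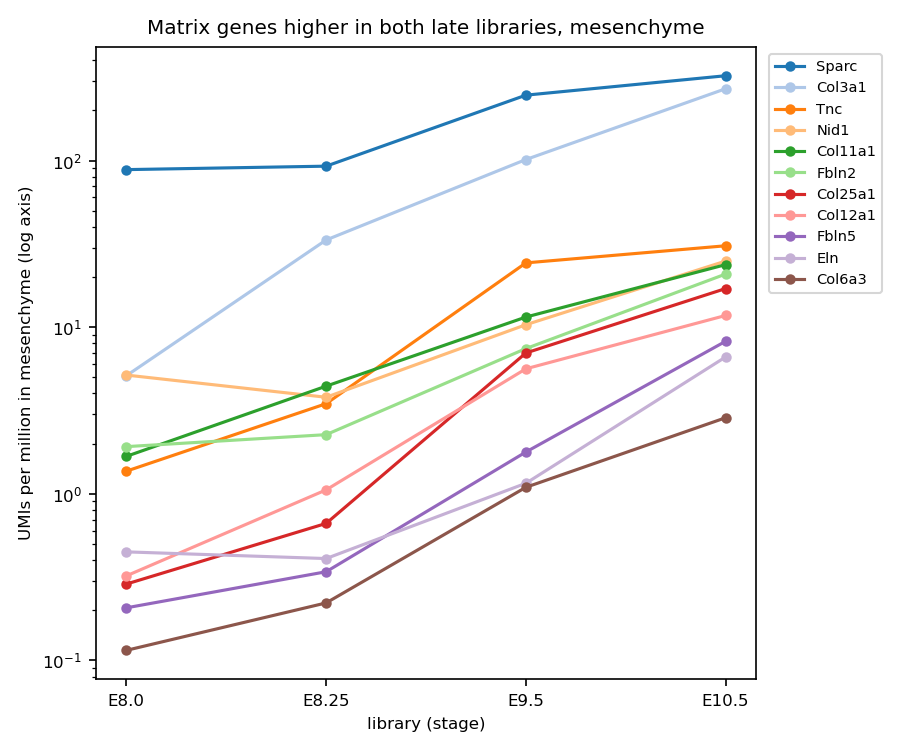
Level (y axis, CPM, log axis) in mesenchyme of the 11 genes whose late levels both exceeded their early levels by at least 2-fold, by library (x axis, stage). Col3a1 goes from 5.11 to 269.7, while Sparc, the highest at each stage, goes from 88.2 to 323.

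In endothelial cells 7 genes were higher late, of which Col3a1, Fbln2, Tnc and Nid1 were also counted in mesenchyme. Col3a1 was higher late there with a log2 ratio of 4.43, from 4 UMIs at E8.0 to 1005 at E10.5. Fbln2 (3.17, 6, 4, 21 and 60 UMIs), Col5a2 (2.35), Fbn1 (2.24), Tnc (2.002), Col1a2 (1.59) and Nid1 (1.19) made up the rest. Col14a1 was lower late, at 4.67, 3.59, 1.42 and 0.746 CPM. Genes that set endothelium apart were present from the first library, where Col4a1 was at 117 CPM and Hapln1 at 437 CPM.

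In sarcomere cells 3 genes were lower late and 5 higher. Hapln1 was lower late (log2 ratio -2.21), as were Lama1 at 11.5, 7.62, 2 and 1.83 CPM (-2.32) and Col18a1 at 96.3, 95.9, 42.8 and 44.7 CPM (-1.13). Sparc (1.59), Col3a1 (2.98), Sparcl1 and Tnc were higher late, the last 2 from 3 and 1 and from 2 and 3 UMIs in the early libraries, and Dcn from no UMI to 4.93 and 9.16 CPM. The E8.25 sum held only 28 cells. Epithelium markers (Epcam, Cdh1, Krt18, Foxa2) summed to 226, 296, 119.96 and 85 CPM in sarcomere cells and 174, 167, 96.2 and 33.9 CPM in mesenchyme, nearly all of it Krt18, with Cdh1 at 0 in sarcomere cells and Epcam at or below 1.28 CPM there. Hapln1 in endothelium was at 437 CPM in the youngest library and 467 CPM in the oldest, and whether the 2 compartments differ in their stage pattern was not tested.

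Muscle progenitors could be compared between the late libraries, with 386 and 542 cells. Of 40 genes 12 were at least 2-fold higher at E10.5 and 3 lower, beside 5.05% and 1.95% of all genes. Lower were Col25a1 (79.6 and 30.9 CPM), Postn (14.7 and 1.69 CPM) and Tnc (11.8 and 4.36 CPM), whereas in mesenchyme Col25a1 was higher at E10.5. Higher were, among others, Dcn (3.67 and 33.2 CPM), Mgp (0.272 and 19.7 CPM) and Lama4 (0.544 and 7.38 CPM). Epicardium markers (Wt1, Upk3b, Upk1b, Krt19) summed in these cells to 19.2 and 83.6 CPM, with all 4 above 0 at E10.5 and Upk1b at 0 at E9.5, and their part in these differences was not tested.

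Shares of cells with a UMI were compared at equal depth. Cells were thinned to 5000 UMIs for this, which 3898 of 3921 cells at E9.5 and all cells of the other libraries had, and the shallower ones were left out. Shares of unthinned cells are given beside. Hapln1 was detected in 80.9%, 83.6%, 85.5% and 72.5% of thinned endothelial cells (97.7%, 98.7%, 96% and 90.6% unthinned) and in 26.4%, 34.9%, 16% and 7.59% of thinned mesenchyme cells (60.1%, 86%, 39.3% and 15.5% unthinned). In erythroid cells, which should lack it, the thinned shares were 3.33%, 4.69% and 1.93% at E8.0, E8.25 and E10.5, below mesenchyme in each. The thinned UMIs of erythroid cells include the RNA of the erythroid gate genes, which lowers all their shares, most at E10.5. Mesenchyme had a like CPM at E8.0 and E10.5 but fewer cells with a UMI at E10.5. Col3a1 was detected in 2.6%, 14.2%, 34.1% and 65.4% of thinned mesenchyme cells (8.8%, 44.9%, 64.9% and 89.5% unthinned), beside 0%, 1.56% and 5.7% of erythroid cells. The share at E10.5 (95% exact interval 63.9% to 67%) was the highest of any gated compartment. Lum by contrast was found in 7.2%, 21.5%, 6.36% and 7.87% of thinned mesenchyme cells (16%, 47.3%, 11.4% and 12.6% unthinned) and 1.56% of erythroid cells at E8.25. Col25a1 was detected in 28.1% and 13.1% of thinned muscle progenitors in the late libraries (58.5% and 28.2% unthinned), against at most 0.29% of erythroid cells. At the same depth a mesenchyme cell held a median of 4 of the 45 genes at E8.0 and 7 at E10.5, and an endothelial cell 5 and 8.

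Genes that process, bind or degrade matrix were read from lists chosen beside the 45. Among 20 tested matrix receptors, 7 were higher and 8 lower in endothelium than in mesenchyme, and 8 were higher and 5 lower in sarcomere cells. Over all genes, for this and the next 3 lists, 22.4% were higher and 20.2% lower in endothelium and 21.9% and 21.1% in sarcomere cells. Itga3 and Itga6 encode laminin receptor subunits, and the log2 fold change was 2.60 ± 0.30 (adjusted p = 2.24e-05) for Itga3 in endothelium and 3.49 ± 0.37 (adjusted p = 1.64e-05) for Itga6 in sarcomere cells (edgeR with Benjamini-Hochberg adjustment, as for the others here). The collagen receptor Ddr2 was lower in both, with -3.75 ± 0.49 (adjusted p = 6.29e-05) and -3.78 ± 0.54 (adjusted p = 0.000181). Its relative Ddr1 was lower in endothelium (-2.45 ± 0.41, adjusted p = 0.000448) but higher in sarcomere cells (2.30 ± 0.29, adjusted p = 6.98e-05), and Itgb3 was higher in sarcomere cells (5.52 ± 0.49, adjusted p = 3.79e-06). Of 17 proteases and inhibitors, 9 were higher and 3 lower in endothelium, led by Adam12 (3.28 ± 0.28, adjusted p = 2.16e-06) and Mmp9 (2.51 ± 0.41, adjusted p = 0.000381), and 3 were higher and 4 lower in sarcomere cells, where Mmp2 was lower (-2.34 ± 0.32, adjusted p = 0.000128). Of 16 genes of collagen modification and secretion, 5 were higher and 5 lower in endothelium, with the procollagen processing enhancer Pcolce lowest (-3.10 ± 0.34, adjusted p = 1.54e-05), and 2 were higher and 2 lower in sarcomere cells. Of 22 further matrix proteins, 5 were higher and 8 lower in either compartment, with Lama2 lower in endothelium (-4.54 ± 0.72, adjusted p = 0.000311) and Bgn lower in sarcomere cells (-3.65 ± 0.58, adjusted p = 0.000379). Muscle progenitors differed from mesenchyme in 1 gene upward and 5 downward over the 4 lists (20, 17, 16 and 22 genes tested). Over all genes 1.13% were higher and 0.791% lower in that comparison. Ddr2 (-2.38 ± 0.49, adjusted p = 0.0264) and Timp3 (-1.55 ± 0.31, adjusted p = 0.0221) were among those lower.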

How the data were processed

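Single-cell RNA was measured in 4 libraries (10x Genomics 3′ version 2 chemistry). The authors deposited filtered UMI count matrices of 27998 genes made with Cell Ranger 3.1.0 on mm10, per the submitters' processing notes, and these raw counts hold 7581, 2956, 4055 and 8070 barcodes. Cells with under 1000 detected genes or over 10% mitochondrial UMIs were dropped, and the highest Scrublet scores (scanpy 1.11.5) were removed as doublets at a fixed rate of 0.8% per 1000 cells (459, 70, 131 and 517 cells). Retained UMIs per library were 151615964, 106020617, 70599266, 127959940.

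Gates used summed marker CPM of at least 2000 with 3 markers detected (sarcomere), 500 with 3 (endothelial), 200 with 2 (muscle progenitor and mesenchyme) and 20000 (erythroid). Cells passing more than 1 gate (98, 63, 461 and 408) were left out. Raw counts were summed per library and compartment, sums under 20 cells were dropped, and all compartments were fitted together with edgeR 4.0.16 (TMM, quasi-likelihood test, library as block, Benjamini-Hochberg adjustment over 12517 genes, called at 0.05). The libraries are of different stages, so that p-values measure the spread of a compartment difference between stages. DESeq2 1.42.0, other gates, scalings and filters and leaving out each library were alternatives. Intervals (95% exact) cover counting error only. On simulated counts for endothelial against mesenchyme (12517 genes), 73% of genes changed 2-fold and 99% of those changed 4-fold were recovered, with 3.39% false among those called. The simulation had no differences between stages and 1 fixed spread for all genes, and its changed genes were drawn from those with higher counts. These rates therefore do not carry over to genes of few UMIs or to differences that vary with stage.

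The 45 genes, the marker and pathway lists and the rules were chosen with earlier results of these data known. All 45 genes are accounted for. Values are printed for up to 4 genes per role by level, up to 8 called genes per comparison and direction by fold change, up to 8 genes per stage comparison and direction by ratio, and up to 3 called genes per pathway list and direction, and others by count. A check of the muscle progenitor gate by further markers is not reported here. Names that fall outside this were added after their values were seen.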

Additional observations from a re-analysis of the deposited data

How the results depend on the processing

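None of the 83 calls among the matrix genes reversed under any alternative. With DESeq2 9 of them missed the threshold, with doubled gate thresholds 4, with gates on thinned cells 5, with cells of 2 gates kept 4, without TMM 1, without doublet removal 1, and without the cell filter or the low-count filter 0. Without the replicate block (the library term) 32 missed it, which left 5 higher and 3 lower in sarcomere cells, 10 lower in endothelium and 0 lower in muscle progenitors, each against mesenchyme. The library pairs compartments that came from the same pooled embryos. In muscle progenitors against mesenchyme 2 genes were higher without the low-count filter and 2 with doubled gates, and 4 were lower with gates on thinned cells. When each library was left out in turn, sarcomere against mesenchyme gave 5 to 9 higher and 9 to 16 lower, endothelium against mesenchyme 10 to 14 and 12 to 19, muscle progenitors against mesenchyme 0 to 1 and 0 to 4, and endothelium against sarcomere cells 10 to 13 and 9 to 12. The fewest in sarcomere cells came without E9.5 (5 higher) and in endothelium without E10.5 (12 lower). These counts also hold genes newly called. Of the 83 calls themselves 22 missed the threshold without E9.5, 21 without E10.5, 12 without E8.25 and 7 without E8.0. Between stages over all cells, a 3-fold limit gave 5 genes higher late in place of 10, and TMM scaling gave 1 lower. Leaving out a library gave 11 to 19 higher (19 without E9.5) and 1 to 3 lower. Those counts could only stay or rise, since fewer libraries then have to meet the rule. The log2 ratio of the summed level was 0.47 (TMM 0.407, without erythroid cells 0.532, without haemoglobin, mitochondrial and ribosomal protein genes 0.525, and 0.33 to 0.61 with a library left out), and the 3-fold limit gives no value for it. Within compartments the gene lower late in endothelium was lost with gates on thinned cells (0), and TMM scaling gave 2 lower late in mesenchyme. Apart from the leave-out and 3-fold counts between stages, which the rule itself moves, the cause of these shifts was not tested. The sarcomere and muscle progenitor sums at E8.25 rest on 28 and 22 cells. They held the fewest UMIs of the sums fitted, 918087 and 636456, although E8.25 had the most UMIs per cell.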

Other observations

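Cells that passed no gate (2275, 641, 721 and 1394, from the youngest to the oldest library) also held matrix transcripts. Dcn, which encodes decorin, was at 3.06, 10.1, 14.7 and 65.7 CPM in them, and its E10.5 value lay above those of all 4 gated compartments, of which muscle progenitors had the highest at 33.2 CPM. Postn, which encodes periostin, was at 6.76, 39.9, 20.9 and 5.93 CPM, highest at E8.25. Sparcl1 was at 8.32, 16, 52.9 and 55.9 CPM, with each late value above each early one. In these ungated cells epicardium markers summed to 277 CPM and macrophage markers to 229 CPM at E10.5, and neural crest markers (Sox10, Foxd3, Tfap2b, Erbb3) to 50.8 CPM at E8.25. The part of such cells in the values was not tested.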
